A study of Mus musculus with 12 samples.

Results

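The genes described here serve glucose sensing, hormone processing and maturity of the pancreatic beta cell. They were taken by name: Slc2a2, G6pc2, Ucn3, Slc30a8, Abcc8, Kcnj11, Glp1r, Pcsk1 and Pcsk2, 9 genes in all. Of these, 8 had a row with a single gene symbol on the arrays, each with 1 row, among 19938 genes measured this way. Pcsk2 has no such row in the annotation used and was not analysed here. RNA came from pools of islets of 8 week old Rip1Tag2 (RIP1-Tag2) mice on a C57BL/6 background, with 1 Affymetrix mouse gene array for each of the 12 pools. In these mice the rat insulin promoter drives the SV40 T antigen, so that beta cells proliferate and form tumors, and some islets switch to an angiogenic state. Islets were sorted by their appearance into 6 angiogenic and 6 non angiogenic pools. All 12 pools carried the transgene and were of early tumor islets, and no group without it was compared. The number of mice or islets behind a pool is not in the labels, nor is it said whether different pools had different donors. The p-values therefore measure the spread among these pools, which may be technical in part.

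In the mature beta cell, glucose enters through a transporter of the plasma membrane and is broken down inside it. Its metabolism raises ATP, which closes ATP-sensitive potassium channels, and the cell depolarises, takes up calcium and releases insulin. Receptors for gut hormones such as GLP-1 amplify this response through cAMP. Insulin is cut from proinsulin by prohormone convertases and is stored in secretory granules with zinc. Urocortin 3 is a peptide that mouse beta cells release with insulin and that acts on neighbouring delta cells to promote somatostatin release. Its gene is widely used as a marker of beta cell maturity.

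The windows around the transcript starts of 6 of the 9 genes were in the RefSeq table of GRCm38.p6 (Slc2a2, G6pc2 with 2 windows, Ucn3, Glp1r, Pcsk1 and Pcsk2), and each spans 250 bases before to 50 bases after the start. Printed here are those of Ucn3, Slc2a2 and Pcsk1, the genes with an unadjusted p under 0.05 between the groups, and the window of G6pc2 that held motif matches, as G6pc2 differed most between the sets of arrays described further on. Capitals mark matches, on either strand, to CAGATG (an E-box of the kind bound by NeuroD1), TAATTA (a homeodomain site), TGCTGA (the core of MAF factor sites), TGTTTAC (a forkhead site) or TGACGTCA (the cAMP response element).
Ucn3, GRCm38.p6 chr13:3945300-3945599, minus strand: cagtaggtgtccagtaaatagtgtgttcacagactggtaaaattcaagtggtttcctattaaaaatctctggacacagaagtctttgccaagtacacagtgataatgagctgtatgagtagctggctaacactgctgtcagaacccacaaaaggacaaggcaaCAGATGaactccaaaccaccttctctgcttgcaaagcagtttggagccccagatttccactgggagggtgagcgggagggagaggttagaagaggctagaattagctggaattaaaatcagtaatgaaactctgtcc
Slc2a2, GRCm38.p6 chr3:28697653-28697952, plus strand: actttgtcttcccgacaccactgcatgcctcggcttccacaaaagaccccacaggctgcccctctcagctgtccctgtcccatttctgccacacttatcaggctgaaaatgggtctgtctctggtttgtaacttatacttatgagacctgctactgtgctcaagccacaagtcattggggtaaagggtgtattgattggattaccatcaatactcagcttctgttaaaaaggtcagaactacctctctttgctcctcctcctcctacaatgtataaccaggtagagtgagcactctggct
Pcsk1, GRCm38.p6 chr13:75089607-75089906, plus strand: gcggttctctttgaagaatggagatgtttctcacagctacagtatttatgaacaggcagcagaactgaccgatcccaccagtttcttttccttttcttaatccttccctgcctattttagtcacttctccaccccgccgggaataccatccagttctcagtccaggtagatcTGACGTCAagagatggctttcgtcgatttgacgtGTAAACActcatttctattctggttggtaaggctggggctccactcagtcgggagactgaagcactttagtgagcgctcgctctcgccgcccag
G6pc2, GRCm38.p6 chr2:69219699-69219998, plus strand: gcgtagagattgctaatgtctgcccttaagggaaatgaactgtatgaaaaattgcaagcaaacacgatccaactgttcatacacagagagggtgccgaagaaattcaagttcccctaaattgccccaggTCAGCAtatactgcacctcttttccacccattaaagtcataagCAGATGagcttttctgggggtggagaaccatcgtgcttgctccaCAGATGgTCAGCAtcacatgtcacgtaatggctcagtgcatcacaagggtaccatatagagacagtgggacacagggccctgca

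The Ucn3 window held 1 E-box, beginning at position -87 counted from the transcript start. The Pcsk1 window held the full cAMP response element at position -78 and a forkhead site on the opposite strand at -44. The printed G6pc2 window held 2 E-boxes, at -78 and -34, and 2 MAF cores on the opposite strand, at -121 and -27. The Slc2a2, Glp1r and Pcsk2 windows and the other G6pc2 window held 0 of these letters. No match overlapped another. Among all 32851 windows of the same length, 17.2% held CAGATG, 19.5% TGCTGA, 5.29% TAATTA, 3.65% TGTTTAC and 1.79% TGACGTCA. A match describes the letters only and is not a measured binding site.

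Most of these beta cell genes differed little between angiogenic and non angiogenic islets. Ucn3 was the 1 gene of the 8 that passed the test and it was lower in angiogenic islets, with a ratio of linear levels of 0.842 (95% interval 0.770 to 0.921). Slc2a2 had a similar ratio of 0.854 but a wider spread, and Pcsk1 a ratio of 1.12, and neither passed in this fit without covariates. Slc2a2 passed with the sets of arrays described below as a block (adjusted p = 0.0407 from limma). For the remaining 5 genes the ratio lay between 0.967 and 1.003. Groups were compared with limma (two-sided) on the deposited log2 levels, and p-values were adjusted by Benjamini-Hochberg across the 19938 genes with 0.05 as the threshold. Across all genes, 0.948% were called lower and 3.55% higher in angiogenic islets, against 1 of 8 lower and 0 of 8 higher here, so the count is a single gene. At an unadjusted p under 0.05 from limma, 3 of the 8 were past it (Ucn3, Slc2a2 and Pcsk1), beside 2861 of all 19938 genes. The differences of the 8 genes had a median of -0.04 on the log2 scale, beside -0.02 over all genes, and 6 were negative.

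**Figure D1:**
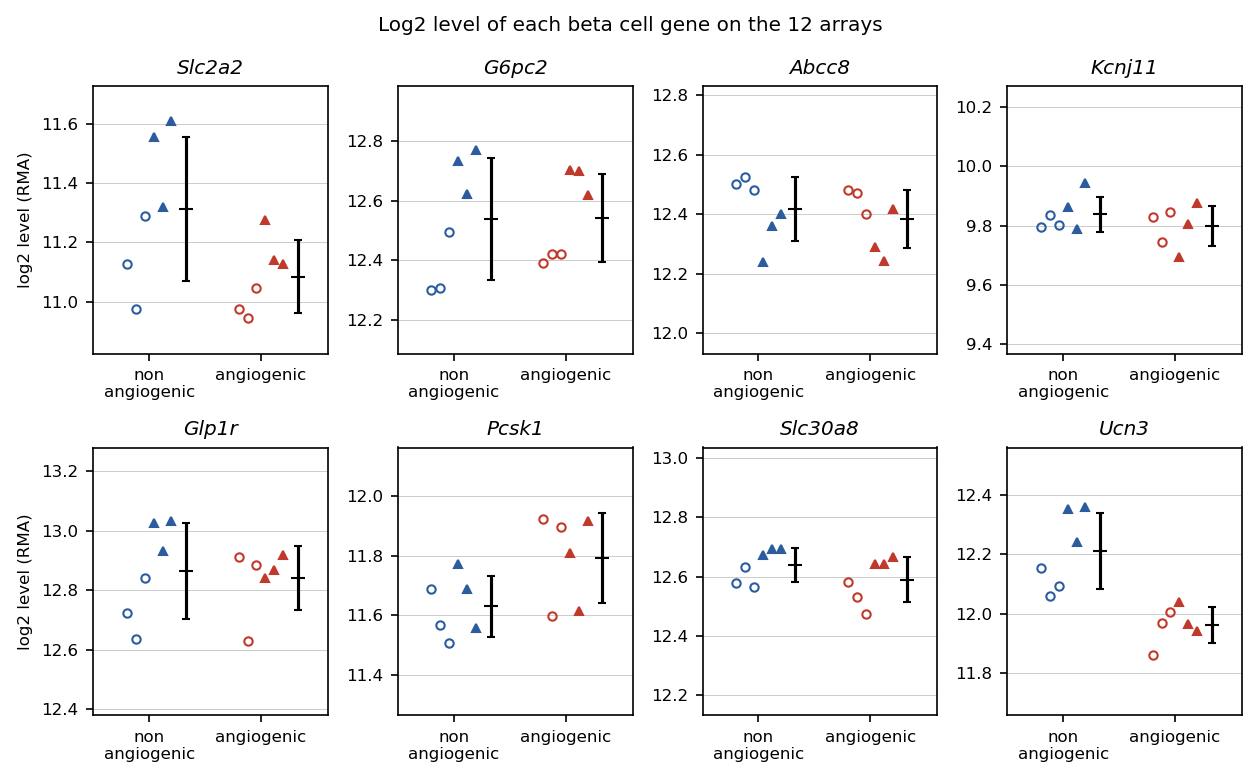
Log2 level (RMA, y axis) of the 8 genes on each array, with non angiogenic islets in blue and angiogenic islets in red, open circles for replicates 1 to 3 and filled triangles for replicates 4 to 6. Black marks give the mean and SD of 6 arrays, and each panel spans the same height on the log2 scale. The groups are apart for Ucn3 alone, and in 5 panels the triangles lie on average above the circles in both groups.

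The arrays fall into sets, which bear on every value below. Replicates 1 to 3 of both groups differ from replicates 4 to 6 across a large share of genes (18.2% of all genes higher and 19.1% lower in replicates 4 to 6 past the threshold, in a limma model that also held the group). Each set holds 3 arrays of each group, and the labels do not say what distinguishes the sets. The study's legend speaks of 2 profiling experiments and does not assign arrays to them. If the sets are these experiments, the 6 arrays of a group are not 6 replicates of 1 experiment, and SDs over 6 arrays also hold the difference between experiments. For the measured genes taken by name at the start, each comparison is therefore also given within the sets. Array medians lay between 7.30 and 7.38, and the number of arrays limits the precision. RMA brings all arrays to a common distribution, and the level of 1 gene cannot be set against that of another.

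Ucn3, the marker of beta cell maturity, had log2 levels of 11.86, 11.97, 12.01, 12.04, 11.96 and 11.94 in angiogenic replicates 1 to 6. In non angiogenic replicates 1 to 6 it had levels of 12.15, 12.06, 12.09, 12.35, 12.24 and 12.36. Every angiogenic array thus lay below the lowest non angiogenic array, although the nearest arrays, at 12.04 and 12.06, were close. The mean log2 level was 11.96 ± 0.06 (SD, n = 6) against 12.21 ± 0.13 (SD, n = 6), a difference of -0.25 (SE 0.06, 95% interval -0.38 to -0.12, adjusted p = 0.0285 from limma). A separation of this kind and direction was seen for 0.923% of all genes. The call was close to the threshold. Without any 1 of non angiogenic replicates 4, 5 and 6 or angiogenic replicates 1, 2, 5 and 6, the adjusted p from limma rose to between 0.0539 and 0.0677, while the difference over all 12 fits without 1 array stayed between -0.28 and -0.22. Blocking on the set gave an adjusted p of 0.00371 from limma.

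Within the sets, Ucn3 was lower in angiogenic islets in both, with no overlap. The share of all genes apart with 3 against 3 arrays was not counted, for this gene or those below. The log2 difference of Ucn3 was -0.16 in replicates 1 to 3 (95% interval -0.29 to -0.03, adjusted p = 0.188 from limma) and -0.34 in replicates 4 to 6 (95% interval -0.47 to -0.20, adjusted p = 0.00612 from limma). Of all genes, 0.878% were called lower in replicates 1 to 3, and 0.918% in replicates 4 to 6, and Ucn3 was the 1 gene of the 8 called, in replicates 4 to 6. The difference between these effects was -0.18 (95% interval -0.37 to 0.01) and did not pass (adjusted p = 0.779 from the interaction term of limma). None of the 8 genes passed this test of the difference, also at an unadjusted p under 0.05, and 0.00502% of all genes, a single gene, did. In order of their means, the levels ran from non angiogenic replicates 4 to 6 (12.32 ± 0.07, SD, n = 3) through non angiogenic replicates 1 to 3 (12.10 ± 0.05, SD, n = 3) and angiogenic replicates 4 to 6 (11.98 ± 0.05, SD, n = 3) to angiogenic replicates 1 to 3 (11.94 ± 0.08, SD, n = 3). The last pair overlapped and the others did not.

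The difference in Ucn3 was compared with that of other beta cell genes. Of 19 genes of beta cell identity measured, 0 rose and 0 fell by limma (1 higher and 2 lower at an unadjusted p under 0.05, and 2 lower with the set as a block), and their median log2 difference was -0.05. Ins2, one of the insulin genes, averaged 13.21 ± 0.04 (SD, n = 6) on the log2 scale in the angiogenic group, against 13.22 ± 0.05 (SD, n = 6). Mafa, a transcription factor of mature beta cells, differed by -0.01 (95% interval of the ratio 0.826 to 1.19). Ins1, the other insulin gene, has no row with a single symbol in the annotation used. With each array's mean of the beta cell identity list subtracted, Ucn3 differed by -0.20 (SE 0.06) and its adjusted p was 0.0652 from limma, or 0.0187 with the set as a block. When the mean of 12 genes of endocrine secretory cells was subtracted instead, the difference was -0.18 and the adjusted p 0.0847 from limma. The largest difference on the identity list was that of Nkx6-1, a transcription factor of beta cells, at -0.23 (SE 0.06, adjusted p = 0.0566 from limma, and 0.0179 with the set as a block).

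Markers of other cells moved between the same groups, and their part in the difference of Ucn3 was not tested. In such pools, fewer beta cells and less RNA of a gene per beta cell cannot be told apart. At an adjusted p under 0.05 from limma, 3.55% of all genes were higher in angiogenic islets and 0.948% were lower. Of the markers, 12 of 15 endothelial, 10 of 10 pericyte and smooth muscle, 9 of 10 fibroblast and 6 of 11 macrophage genes were higher and 0 were lower. Their mean log2 levels per array did not overlap between the groups, for example 9.27 to 9.58 in angiogenic against 8.13 to 8.53 in non angiogenic islets for the fibroblast list. The mean of the beta cell identity list ran from 10.98 to 11.08 in angiogenic and from 11.05 to 11.11 in non angiogenic islets, with overlap. Acinar markers, 17 genes, had means of 7.54 to 10.53 and 7.35 to 11.65, and 0 of them passed, also without adjustment. With the acinar mean as a covariate, Ucn3 differed by -0.26 (adjusted p = 0.0177 from limma).

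Ucn3 acts on delta cells through the receptor Crhr2, with mean log2 levels of 7.06 ± 0.11 (SD, n = 6) in the angiogenic and 7.09 ± 0.11 (SD, n = 6) in the non angiogenic pools (adjusted p = 0.901 from limma). The related peptides Ucn and Ucn2 each differed by -0.03 and did not pass. Sst, the somatostatin gene of delta cells, fell by 0.74 on the log2 scale (SE 0.08, adjusted p = 8.27e-05 from limma), by 0.74 in each set. Of 11 measured markers of other islet cells, 3 fell and 0 rose, beside 0.948% and 3.55% of all genes. Besides Sst, those that fell were Pyy, which encodes peptide YY, by 0.56, and Gcg, the glucagon gene, by 0.26. At an unadjusted p under 0.05 from limma, 5 were lower and 1 was higher. The higher one was Etv1, named after its values were seen, at 0.24 (adjusted p = 0.0509, and 0.00833 with the set as a block, both from limma). Hhex and Rbp4, listed as delta cell genes beside Sst, differed by 0.01 and -0.14 and did not pass (adjusted p = 0.981 and 0.658 from limma). Fewer delta cells and less Sst RNA per delta cell cannot be told apart, and a link to Ucn3 was not tested.

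Slc2a2 encodes GLUT2, the transporter through which mouse beta cells take up glucose. Its log2 levels were 10.98, 10.94, 11.05, 11.28, 11.14 and 11.13 in angiogenic replicates 1 to 6. In non angiogenic replicates 1 to 6 they were 11.13, 10.97, 11.29, 11.56, 11.32 and 11.61. The groups overlapped over all arrays, since 5 of the 6 angiogenic arrays lay above the lowest non angiogenic array, but within replicates 4 to 6 every angiogenic array was the lower. The means were 11.09 ± 0.12 (SD, n = 6) and 11.31 ± 0.24 (SD, n = 6), a difference of -0.23 (95% interval -0.44 to -0.01), and the adjusted p was 0.299 from limma. Within the sets the difference was -0.14 in replicates 1 to 3 (adjusted p = 0.426) and -0.31 in replicates 4 to 6 (adjusted p = 0.0709), both from limma. With the set as a block Slc2a2 passed (adjusted p = 0.0407 from limma), so that 2 of the 8 genes were called lower in that fit, where 2.74% of all genes were. In order of their means, the levels were 11.49 ± 0.15 (SD, n = 3) in non angiogenic replicates 4 to 6, 11.18 ± 0.08 (SD, n = 3) in angiogenic replicates 4 to 6, 11.13 ± 0.16 (SD, n = 3) in non angiogenic replicates 1 to 3 and 10.99 ± 0.05 (SD, n = 3) in angiogenic replicates 1 to 3. The first of these lay apart from the second, and the later neighbours overlapped.

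G6pc2 encodes an islet glucose-6-phosphatase subunit, which turns glucose 6-phosphate back into glucose. Its lowest, median and highest log2 levels were 12.39, 12.52 and 12.71 in angiogenic and 12.30, 12.56 and 12.77 in non angiogenic islets. The groups overlapped, and the difference was 0.00 (SE 0.09), with a 95% interval of the ratio from 0.873 to 1.15. The order of the levels followed the sets. Replicates 4 to 6 of non angiogenic (12.71 ± 0.08, SD, n = 3) and angiogenic islets (12.68 ± 0.05, SD, n = 3) lay above replicates 1 to 3 of angiogenic (12.41 ± 0.02, SD, n = 3) and non angiogenic islets (12.37 ± 0.11, SD, n = 3), with overlap between the groups within each set and none between the sets.

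Abcc8 and Kcnj11 encode SUR1 and Kir6.2, the regulatory and pore subunits of the ATP-sensitive potassium channel, and their genes lie close together on chromosome 7, with 1 other annotated gene start between theirs (RefSeq, GRCm38.p6). Abcc8 had log2 levels of 12.24, 12.41 and 12.48 (lowest, median and highest) in angiogenic and 12.24, 12.44 and 12.52 in non angiogenic islets. Kcnj11 had levels of 9.70, 9.82 and 9.87 in angiogenic and 9.79, 9.82 and 9.94 in non angiogenic islets. Both genes overlapped between the groups and differed by -0.04 (SE 0.06 and 0.05), and neither passed (adjusted p = 0.887 and 0.817 from limma). The 95% intervals of the ratio were 0.891 to 1.07 for Abcc8 and 0.908 to 1.04 for Kcnj11. By group and set, Abcc8 ran from 12.50 ± 0.02 (SD, n = 3) in non angiogenic and 12.45 ± 0.04 (SD, n = 3) in angiogenic replicates 1 to 3 down to 12.33 ± 0.08 (SD, n = 3) and 12.32 ± 0.09 (SD, n = 3) in replicates 4 to 6. Kcnj11 kept its means between 9.79 and 9.87 throughout, and for both genes all neighbours in the order of means overlapped.

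Glp1r encodes the receptor of the incretin GLP-1. Its log2 levels were 12.91, 12.63, 12.88, 12.84, 12.87 and 12.92 in angiogenic replicates 1 to 6, and 12.64, 12.89 and 13.03 (lowest, median and highest) in non angiogenic islets. Angiogenic replicate 2 lay well below the other angiogenic arrays. The difference was -0.02 (SE 0.08, adjusted p = 0.949 from limma), with a 95% interval of the ratio from 0.880 to 1.10. Its sign turned between the sets, at 0.07 in replicates 1 to 3 and -0.12 in replicates 4 to 6, and neither value passed (adjusted p = 0.656 and 0.564 from limma). As said above, the share of all genes apart within a set of arrays was not counted. In replicates 4 to 6 the groups did not overlap, with angiogenic arrays from 12.84 to 12.92 and non angiogenic arrays from 12.93 to 13.03. Their means of 12.88 ± 0.04 (SD, n = 3) and 13.00 ± 0.06 (SD, n = 3) were followed by angiogenic (12.81 ± 0.16, SD, n = 3) and non angiogenic replicates 1 to 3 (12.73 ± 0.10, SD, n = 3). The angiogenic sets overlapped with each other, as did the groups of replicates 1 to 3.

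Pcsk1 encodes prohormone convertase 1/3, which begins the cutting of proinsulin. Its log2 levels were 11.92, 11.60, 11.90, 11.81, 11.61 and 11.92 in angiogenic replicates 1 to 6. In non angiogenic replicates 1 to 6 they were 11.69, 11.57, 11.50, 11.77, 11.69 and 11.55. Of the angiogenic arrays, 4 lay above the highest non angiogenic array and the other two lay among the non angiogenic ones. The means were 11.79 ± 0.15 (SD, n = 6) and 11.63 ± 0.10 (SD, n = 6). Pcsk1 had the one positive difference above 0.1 among the 8 genes, 0.16 (95% interval 0.01 to 0.32), and did not pass (adjusted p = 0.299 from limma, and 0.180 with the set as a block). In replicates 1 to 3 it stood at 0.22, and in replicates 4 to 6 at 0.11. The angiogenic means of 11.81 ± 0.18 (SD, n = 3) in replicates 1 to 3 and 11.78 ± 0.15 (SD, n = 3) in replicates 4 to 6 lay above the non angiogenic means of 11.59 ± 0.09 (SD, n = 3) and 11.67 ± 0.11 (SD, n = 3). Neighbours in this order overlapped.

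Slc30a8 encodes ZnT8, which carries zinc into insulin granules. Its lowest, median and highest log2 levels were 12.47, 12.61 and 12.67 in angiogenic and 12.56, 12.65 and 12.69 in non angiogenic islets. The groups overlapped over all arrays, while in replicates 4 to 6 the angiogenic arrays lay just below the non angiogenic ones. The difference was -0.05 (SE 0.05, adjusted p = 0.751 from limma), with a 95% interval of the ratio from 0.900 to 1.04. The means ran in the order of non angiogenic (12.69 ± 0.01, SD, n = 3) and angiogenic replicates 4 to 6 (12.65 ± 0.01, SD, n = 3), then non angiogenic (12.59 ± 0.04, SD, n = 3) and angiogenic replicates 1 to 3 (12.53 ± 0.05, SD, n = 3). The last pair overlapped and the others did not.

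**Figure D2:**
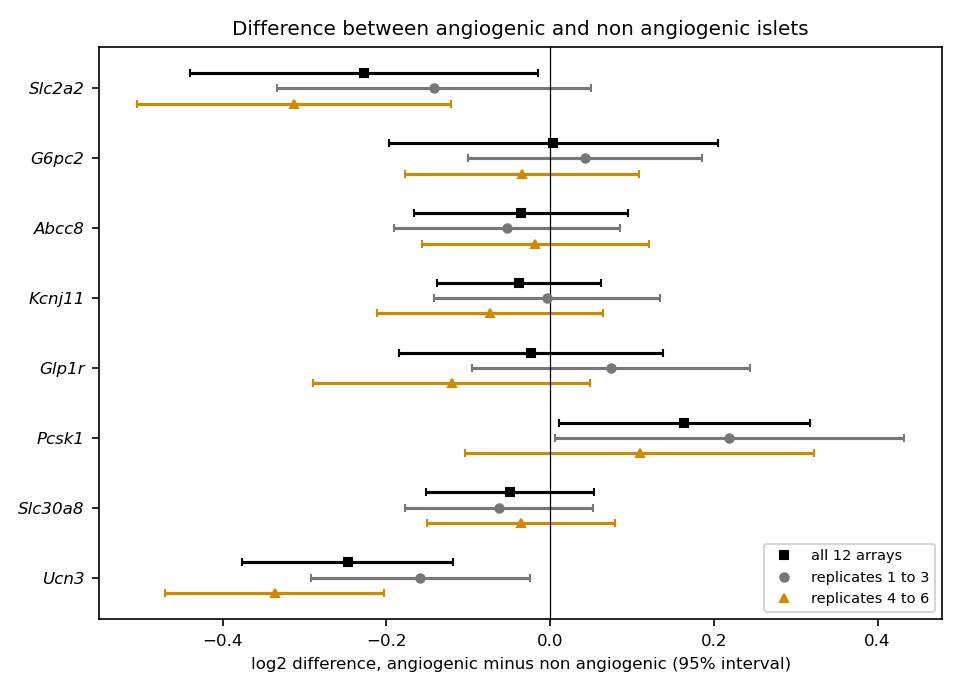
Log2 difference between angiogenic and non angiogenic islets (x axis, angiogenic minus non angiogenic) for the 8 genes, with 95% intervals from limma, over all 12 arrays (black squares), in replicates 1 to 3 (grey circles) and in replicates 4 to 6 (yellow triangles). The interval for Ucn3 excludes 0 in all 3 comparisons, that for Slc2a2 over all arrays and in replicates 4 to 6, and that for Pcsk1 over all arrays and in replicates 1 to 3, without adjustment over genes.

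Levels of these genes also differed between the sets. With group in the model, 5 of the 8 genes were higher in replicates 4 to 6 and 1 was lower past the threshold of the limma fit, beside the 18.2% and 19.1% of all genes. G6pc2 was 0.30 higher on the log2 scale (SE 0.05, adjusted p = 3.62e-04) and Slc2a2 0.28 higher (SE 0.06, adjusted p = 0.00449). Glp1r was higher by 0.17, Ucn3 by 0.13 and Slc30a8 by 0.11, with adjusted p between 0.0332 and 0.0389. Abcc8 alone was lower, at -0.15 (SE 0.05, adjusted p = 0.0194), although its channel partner Kcnj11 differed by 0.02 (SE 0.05) and did not pass. Pcsk1 differed by 0.03 (SE 0.07) and did not pass. The mean of the acinar markers was 1.23 higher in replicates 4 to 6 on the log2 scale. With that mean as a covariate, G6pc2 (0.32) and Slc2a2 (0.28) stayed past the threshold (adjusted p = 0.00132 and 0.0207 from limma) and the other 4 genes did not. The differences of 3 of these moved little, to -0.13 for Abcc8 (SE 0.05, adjusted p = 0.0821), 0.11 for Slc30a8 (SE 0.05, adjusted p = 0.0974) and 0.12 for Ucn3 (SE 0.06, adjusted p = 0.154). That of Glp1r moved to 0.10 (SE 0.07, adjusted p = 0.255).

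**Figure D3:**
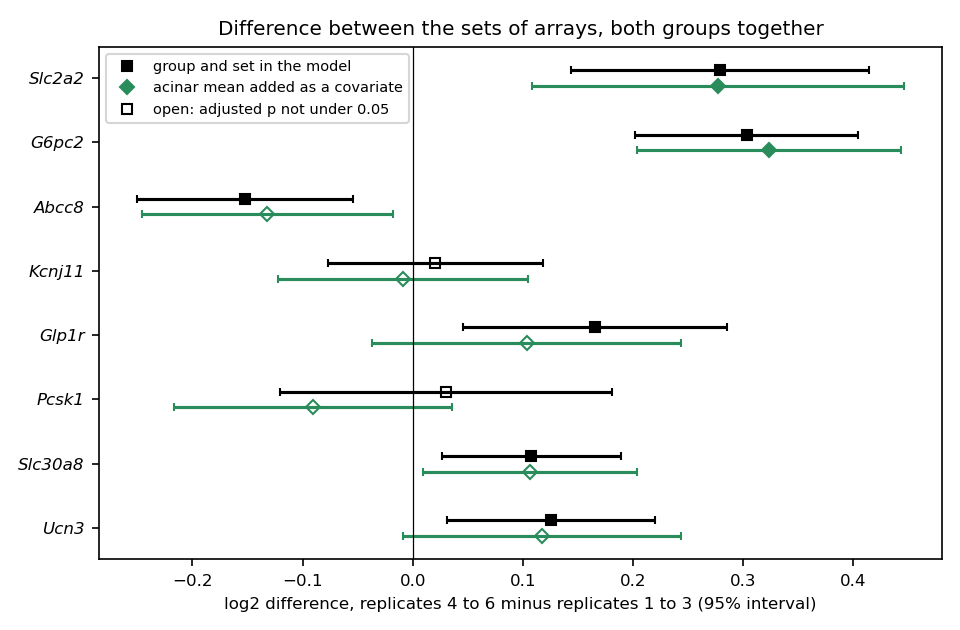
Log2 difference between replicates 4 to 6 and replicates 1 to 3 (x axis, both groups together) for the 8 genes, with 95% intervals from limma, without (black squares) and with (green diamonds) the mean of the acinar markers as a covariate. Filled symbols have an adjusted p under 0.05, which with the covariate holds for G6pc2 and Slc2a2.

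The wider set of genes of glucose sensing and secretion was described through lists written by function. Over 107 measured genes of these lists other than the 8, 13 rose and 1 fell in angiogenic islets, with a median log2 difference of -0.01. Over all genes, 3.55% were called higher and 0.948% lower. Of 14 genes of glucose metabolism measured, 0 passed by limma (1 higher at an unadjusted p under 0.05). That gene, the malic enzyme gene Me1, named after its values were seen, differed by 0.20 and passed with the set as a block (adjusted p = 0.0247 from limma). The largest difference, also 0.20, was that of the isocitrate dehydrogenase gene Idh1 (SE 0.24, adjusted p = 0.814 from limma). Of 12 genes of electrical activity, such as calcium and potassium channels, 0 passed by limma (3 lower at an unadjusted p under 0.05), although 10 were negative and the median was -0.12. The largest was the potassium channel gene Kcnk3 at -0.18 (SE 0.08, adjusted p = 0.300 from limma, and 0.0294 with the set as a block). Of 9 genes of prohormone processing other than Pcsk1, 0 passed by limma (1 lower at an unadjusted p under 0.05). The largest was Scg5, which encodes the 7B2 chaperone of prohormone convertase 2, with log2 levels of 11.02, 11.13 and 11.29 (lowest, median and highest) in angiogenic and 11.29, 11.31 and 11.40 in non angiogenic islets. These did not overlap, by a narrow margin, and the adjusted p was 0.0577 from limma (0.0128 with the set as a block).

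Of 17 genes of receptors and cAMP signaling, 1 fell and 0 rose, beside 0.948% and 3.55% of all genes. At an unadjusted p under 0.05 from limma, 5 were lower and 2 higher. The gene that fell was Gcgr, the glucagon receptor, with log2 levels of 8.14, 8.41 and 8.58 in angiogenic and 8.65, 8.82 and 8.98 in non angiogenic islets (lowest, median and highest). The groups did not overlap, and the difference was -0.43 (SE 0.08, adjusted p = 0.00413 from limma). Gcgr and Gipr, the receptor of the incretin GIP, belong to the same receptor family as Glp1r. Gipr, named after its values were seen, differed by -0.24 (adjusted p = 0.104, and 0.0287 with the set as a block, both from limma). Glp2r, a further relative of Glp1r and also named after its values were seen, differed by 0.01 and did not pass (adjusted p = 0.978 from limma). Whether Glp1r differed from any of these was not tested. Among 19 relatives of the 8 genes, Gcgr fell and Abcc9 rose. Abcc9 encodes SUR2, the counterpart of SUR1 in vascular and muscle cells, and had levels of 7.95, 8.04 and 8.13 in angiogenic and 7.32, 7.59 and 7.63 in non angiogenic islets, with no overlap. It was 0.51 higher on the log2 scale (SE 0.06, adjusted p = 1.37e-04 from limma). The pericyte and smooth muscle list moved the same way, as given above. How many of all genes were apart between the groups in the higher direction was not counted.

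The list of genes of immature beta cells, or of genes kept low in mature ones, held most of the rises. Of its 22 measured genes, 12 rose and 0 fell, beside 3.55% of all genes called higher and 0.948% called lower. At an unadjusted p under 0.05 from limma, 14 were higher and 2 lower. The median log2 difference of the list was 0.24. The largest were Igfbp4, which encodes a binding protein of insulin-like growth factors, at 0.65 (SE 0.12, adjusted p = 0.00323), the RNA-binding protein gene Zfp36l1 at 0.64 (SE 0.12, adjusted p = 0.00353) and the growth factor receptor gene Pdgfra at 0.56 (SE 0.09, adjusted p = 0.00101), all from limma. In each of these the groups did not overlap. The share of all genes apart in the higher direction was not counted, and these genes were named as the largest differences that passed. Pdgfra is also a fibroblast marker and is the 1 gene that the list shares with the marker lists. Stromal cells can express several of these genes too. The stromal lists above moved in the same arrays, and their part in these rises was not tested. Markers that lie closer to the endocrine cell were Aldh1a3, which marks dedifferentiated beta cells, and the neuropeptide Y gene Npy. Aldh1a3 was 0.36 higher (adjusted p = 0.0426 from limma) and Npy 0.25 higher (adjusted p = 0.0441 from limma). For both genes the groups overlapped. The difference of Aldh1a3 was 0.17 in the set with the lower replicate numbers and 0.54 in the other set. That of Npy was 0.26 and 0.25. Neurog3, the transcription factor of endocrine progenitors, differed by -0.32 and did not pass without covariates (adjusted p = 0.0729 from limma). It passed as lower with the set as a block (adjusted p = 0.0151 from limma). Gast, on the same list, differed by -0.06 and did not pass (adjusted p = 0.856 from limma). Aldh1a3, Npy, Gast and Neurog3 were named after their values were seen.

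**Figure D4:**
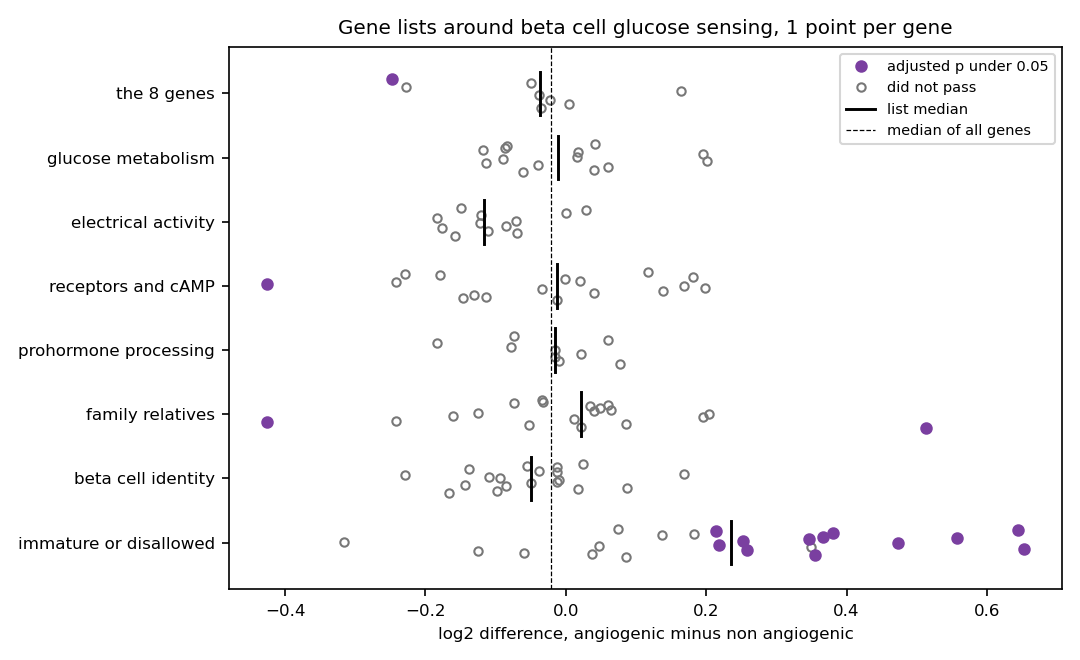
Log2 difference between angiogenic and non angiogenic islets (x axis, angiogenic minus non angiogenic) for each measured gene of the 8 genes and of 7 lists, 1 point per gene. Filled points have an adjusted p under 0.05 from limma, thick lines are list medians, and the dashed line is the median of all genes at -0.02. Most filled points lie in the list of immature or disallowed genes.

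The 8 genes did not move as 1 unit. Pearson's r of each gene with the mean of the 8, each scaled within a set of 6 arrays, took values of 0.71 (replicates 1 to 3) and 0.86 (replicates 4 to 6) for Slc2a2, and of 0.61 and 0.96 for Glp1r. It was 0.04 and -0.25 for Pcsk1. Slc2a2 and Ucn3 had r = 0.63 and 0.95 with each other. These values describe 6 arrays each, which share the difference between the groups, and each gene is part of the mean. The genes outside the 8 most like their mean, by the lower of the values in the sets, were Ctdspl (0.98 in both), Kidins220 (0.93 and 0.92), Zxdc (0.92 and 0.98), Adgrg7 (0.91 and 0.90) and Ube2f (0.93 and 0.90). None of these 5 passed between angiogenic and non angiogenic islets, with adjusted p from 0.130 to 0.620 from limma. They were picked as the highest in a search over all other genes measured. Whether their r exceeds what such a search gives for an arbitrary pattern was not tested.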

How the data were processed

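Total RNA of 12 islet pools was measured on 12 Affymetrix mouse gene arrays. Per transcript cluster, a log2 value was deposited by the authors, made with RMA in Affymetrix Expression Console according to the submitters' processing notes. RMA corrects background, equalises the distributions of the arrays and summarises probes, so a change in total RNA cannot be seen and weak signals are compressed. The sources used here give no versions and do not say whether the arrays were normalized jointly. Sample labels gave the groups and replicate numbers.

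Values were used as deposited. Of 35556 rows, 21789 had exactly 1 gene symbol in the platform annotation, 1621 had several and 12146 were unnamed. The brightest row was kept for the 999 genes with more than 1, leaving 19938 genes. The fit was limma 3.58.1 (lmFit and eBayes, two-sided) in R 4.3.3, tested on simulated data, without covariates and with p-values adjusted by Benjamini-Hochberg across the genes tested. Within-set values came from 1 fit with a mean per group and set. Alternatives were the set or the replicate number as a block, each set alone, the methods' t-test, an intensity trend, array weights, median centring, quantile normalization, subtraction of the pan-endocrine mean, an acinar covariate, dim genes left out, all rows of a gene averaged, and each array left out in turn. Subtraction of the beta cell identity mean was added after the data were seen. The members, lists and tests were chosen with earlier results of these data known. The genes named are the 8 genes, Ins2 and Mafa, the 3 largest differences that passed in each list (or the largest where none passed), and the 5 most alike. Others named are said to be so or bear on a result. Promoter windows came from RefSeq (GRCm38.p6).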

Additional observations from a re-analysis of the deposited data

Results flagged for a closer look

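The angiogenic arrays were looked at for values far from the rest of their group, as were the non angiogenic arrays, over 80 groups of 6 arrays, where chance marks about 1 group in 20. In 2 of them 1 array stood apart, and both times it was angiogenic replicate 2. Its log2 level of Glp1r was 12.63, where the other angiogenic arrays ran from 12.84 to 12.92. Its mean log2 level of the acinar markers was 7.54, where the others ran from 9.60 to 10.53. Without this array the difference of Glp1r was 0.02 instead of -0.02, and neither passed.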

How the results depend on the processing

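Over 28 alternatives, Ucn3 was lower in angiogenic islets in all and stayed past the threshold in 18. The number of the 8 genes called lower, 1 as reported, was 2 with the set as a block and 0 in replicates 1 to 3 alone or relative to the pan-endocrine or the beta cell identity list, and 0 to 1 without 1 array. With the replicate block it was 2 (Slc2a2, adjusted p = 0.0374 from limma, beside Ucn3). Same-numbered arrays correlated at only 0.03 for replicate 3 and at 0.30 to 0.54 for the others. With the difference between the sets removed, these values ran from -0.34 (replicate 3) to 0.12 (replicate 4), and the numbers were not taken to pair the pools. The 13 rises among the other pathway genes were 7 in replicates 1 to 3 alone, 6 without the dimmer genes (9969 tested), 23 relative to the beta cell identity list with the set as a block, 21 by the methods' t-test without adjustment, and 7 to 13 without 1 array. Their 1 fall was 6 with the replicate block, 8 with the set as a block, 0 in replicates 4 to 6 alone, 4 with array weights, 3 with median centring or without the dimmer genes, 13 by the unadjusted t-test, 2 by the adjusted t-test, with a trend, with quantile normalization or relative to the identity list with the set as a block, and 1 to 2 without 1 array. With the acinar covariate, 2 of the 5 genes higher in replicates 4 to 6 and 0 of the 1 lower were called, although Ucn3, Slc30a8 and Abcc8 kept differences of 0.12, 0.11 and -0.13. The cause was not tested.

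Signs turned only for differences that did not pass as reported. G6pc2 was -0.035 in replicates 4 to 6 alone, -0.0075 with array weights, -0.014 with median centring, -0.031 with quantile normalization and -0.020 with the acinar covariate. Relative to the pan-endocrine list, Slc30a8 was 0.014, Abcc8 0.028, Kcnj11 0.025, Glp1r 0.040, Ins2 0.050, Mafa 0.053 and Zxdc 0.0061. Relative to the identity list, with or without the set as a block, Slc30a8 was 0.0014, Abcc8 0.015, Kcnj11 0.012, Glp1r 0.027, Ins2 0.037 and Mafa 0.040. In replicates 1 to 3 alone Glp1r was 0.074 and Mafa 0.029, and with quantile normalization Ins2 was 0.064. Without 1 array, G6pc2 ran from -0.044 to 0.050, Glp1r from -0.069 to 0.020, Ins2 from -0.026 to 0.00030 and Mafa from -0.077 to 0.064.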

Other observations

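Of 11 cycling genes, which mark dividing cells, 4 rose and 0 fell in angiogenic islets by limma after adjustment, beside 3.55% and 0.948% of all genes. The median log2 difference of the cycling genes was 0.21. Their mean log2 level ran from 10.84 to 11.06 in angiogenic and from 10.66 to 10.88 in non angiogenic islets. Of 6 duct markers, 0 passed by limma, also without adjustment (median 0.01). Among the 12 genes of endocrine secretory cells, 0 passed as well (3 lower at an unadjusted p under 0.05, median -0.03), the synaptic vesicle gene Syp (named after its values were seen) at -0.21 being the largest (adjusted p = 0.134 from limma, and 0.0361 with the set as a block, where it was the 1 gene called).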
